A study of Mus musculus with 6 samples.

Results

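The genes described here encode the extracellular matrix and the matrix-binding proteoglycans of the neural stem cell niche. They were taken by name from a list of 37 genes, out of 32564 genes measured, and all 37 were found in the files, with 148 transcripts between them. The list was split by role into 13 basement membrane genes, 7 lecticans and their partners, 7 matricellular genes, 7 glypicans and syndecans, and 3 inhibitors of matrix proteases. RNA was sequenced from cells sorted by flow cytometry as quiescent neural stem cells (qNSCs) from the subependymal zone, the stem cell niche beside the lateral ventricles of the adult mouse brain. The title of the series names miR-204 of the choroid plexus and its bearing on neural stem cell number.

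All animals were gfap:GFP transgenic mice of the strain that the labels spell C56BL/6J and were 3 months old. Their green fluorescent protein is driven by the Gfap promoter, which is active in astrocytes as well as in stem cells. The antagomir group (3 libraries) came from mice that received an injection into the ventricles of an antagomir, a modified oligonucleotide that blocks a microRNA, directed against miR-204. The vehicle group (3 libraries) received artificial cerebrospinal fluid (aCSF). Cells of both groups were taken 3 days after injection. The labels name no control oligonucleotide and do not say whether animals were pooled or whether replicates came from separate animals, so the p-values cover the spread between these 6 libraries alone, and that spread may be technical.

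The basement membrane is a sheet built from laminin trimers and a type IV collagen network, joined by nidogens and by the heparan sulfate proteoglycans perlecan and agrin; in the adult subependymal zone it extends from blood vessels towards the stem cells. Between cells, the lecticans are chondroitin sulfate proteoglycans that bind hyaluronan and tenascins. Glypicans and syndecans sit on the cell surface and hold growth factors through heparan sulfate chains, while matricellular proteins modulate adhesion and TIMPs block metalloproteinases.

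A microRNA lowers the output of messenger RNAs whose 3′ untranslated region (UTR) pairs with its seed, bases 2 to 8. The antagomir was directed against miR-204, so the mature sequence is shown with its seed in capitals, beside miR-211-5p, which has the same seed. Both are from RefSeq (GRCm38.p6), mature miR-204-5p at chr19:22750610-22750631 and miR-211-5p at chr7:64205831-64205852, each on the plus strand.
miR-204-5p: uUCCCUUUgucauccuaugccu
miR-211-5p: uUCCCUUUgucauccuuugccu

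The 3′ UTR of 1 protein-coding transcript of each of the 37 genes was searched for the seed match AAAGGGA. It was the most abundant one, except for Gpc6, where Gpc6-202 (27.2% of the gene's TPM, or transcript level) was searched and not Gpc6-201 (40.7%). Other transcripts were not searched, such as Timp4-201 with 48.8% of the TPM of Timp4, so a gene without a match may hold one there. Matches followed by A are called 8mers and the others 7mer-m8 matches. Of the 37 genes, 3 (8.11%) held such a match, against 13.6% of 14330 tested genes searched. Among the 3574 tested genes whose 3′ UTR was within 1.5 times the members' median length of 742 bases, 8.48% held one. The members' share was thus below that of all tested genes and close to that of genes with 3′ UTRs near the members' median. Member 3′ UTRs ran from 110 to 3604 bases. Those with a match had 2551, 3503 and 3510 bases, each more than 1.5 times the median of 742 bases. The last share is therefore not matched in length to the members. The 3 genes were Hapln1, which encodes the link protein that fastens lecticans to hyaluronan, Lamc1, the laminin γ1 chain, and Sdc3, the neuronal and glial syndecan. Their sites are printed for GRCm38 on the strand of the gene, with the match in capitals. They lie in the annotated 3′ UTR, for Hapln1 at chr13:89609236-89609265, chr13:89611029-89611057 and chr13:89611042-89611071 (plus strand), for Lamc1 at chr1:153219688-153219716 (minus strand) and for Sdc3 at chr4:130824394-130824422 (plus strand).
Hapln1 first 8mer: atttatagaagAAAGGGAAaaatacatttc
Hapln1 7mer-m8: tgaccactaaaAAAGGGAggattcaaagg
Hapln1 second 8mer: agggaggattcAAAGGGAAtcagttgtcag
Lamc1 7mer-m8: gctgacagggtAAAGGGAttaggaacgtt
Sdc3 7mer-m8: ctctcagcaccAAAGGGAcacagcttggg

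Hapln1 also held 2 matches to AAGGGAA (7mer-A1), so 5 in all, and at least 5 matches were found in 0.147% of tested genes. At least 2 8mers were found in 0.426% of tested genes. The Hapln1 transcript is 5055 bases long in the deposited files and 5715 bases in the annotation searched, so not every site need lie in the transcript that was quantified. Such a difference in length was found for 6 member genes, Hapln1 among them. Col4a1, Hspg2, Ncan and Sdc4 held only a 7mer-A1. A match is a description of sequence and not a measured site of binding.

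Library totals were 14866453 to 18079548 estimated counts in antagomir libraries and 16358774 to 19694409 in vehicle libraries. Stem cell and astrocyte markers were present in every library (12 of 12 tested), with Gfap at 180 to 294 CPM (counts scaled to library size) in antagomir libraries and 189 to 555 CPM in vehicle libraries. Markers of other cells were present too. The 10 oligodendrocyte markers summed to 15459 to 22011 CPM in antagomir libraries and 9690 to 20416 CPM in vehicle libraries, and 9 neuroblast markers summed to 882 to 2066 CPM in antagomir libraries and 541 to 1339 CPM in vehicle libraries. The label of quiescent neural stem cells therefore does not describe all of the RNA. Oligodendrocyte precursor markers (10) summed to 669 to 1006 CPM in antagomir libraries and 515 to 819 CPM in vehicle libraries, and 10 ependymal markers to 1510 to 2555 CPM in antagomir libraries and 2152 to 2833 CPM in vehicle libraries. Vehicle 1 stood apart in 12 microglia and macrophage markers, which summed to 2035 CPM there, against 108 to 280 CPM in antagomir libraries and 142 and 251 CPM in the other vehicle libraries. In sorted bulk samples fewer cells of a type and less RNA per cell cannot be told apart. Endothelial markers summed to 6.63 to 15.9 CPM in antagomir libraries and 9.69 to 27.2 CPM in vehicle libraries, with Cldn5 and Cdh5 under 1 CPM in all 6 and Pecam1 at 4.59 to 10.03 CPM in antagomir libraries and 5.68 to 6.23 CPM in vehicle libraries. The 14 pericyte, smooth muscle and fibroblast markers summed to 238 to 268 CPM in antagomir libraries and 275 to 285 CPM in vehicle libraries. Of these, 5 were at 0 in all 6 libraries, while Pdgfrb stood at 78.1 to 135.2 CPM in antagomir libraries and 109 to 125 CPM in vehicle libraries, and Acta2 and Col1a2 were present in all 6 too.

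Levels between genes are compared in TPM (transcript levels corrected for transcript length). A small set of genes made up most of the matrix transcript pool. Sparcl1 (SPARC-like 1, or hevin, an astrocyte protein that promotes synapse formation), Sparc (a calcium-binding protein that modulates cell adhesion to matrix), Bcan (brevican, the main lectican of adult brain) and Cspg5 (neuroglycan C, a transmembrane chondroitin sulfate proteoglycan) together held 73.7 to 75.2% of the members' TPM in antagomir libraries and 75.2 to 77.1% in vehicle libraries. Over all 6 libraries Sparcl1 averaged 1527 TPM and ranked 47th among all genes. Sparc averaged 1129 TPM, Bcan 1073 TPM and Cspg5 747 TPM. Sparcl1 was above Sparc in every library, by 1.13 to 1.58-fold in TPM, while the ranges of Sparc (979 to 1448 TPM) and Bcan (911 to 1184 TPM) overlapped. Part of the TPM of some genes lay in transcripts not annotated as protein coding, and counting protein-coding transcripts alone left Sparc with 59.8%, Cspg5 with 69.6% and Bcan with 76.2% of their TPM. On that count Bcan (817 TPM) came before Sparc (675 TPM), and Sparcl1 exceeded Sparc by 1.97 to 2.55-fold in antagomir libraries and 1.98 to 2.43-fold in vehicle libraries.

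The protease inhibitors Timp3 and Timp2 and the receptor-type phosphatase Ptprz1 formed the next tier, at 232, 226 and 188 TPM averaged over the 6 libraries. Cell surface heparan sulfate carriers followed, with Sdc2 at 110 TPM, Sdc4 at 100 TPM and Gpc5 at 91.8 TPM. The ranges of Timp3 (185 to 269 TPM) and Timp2 (192 to 252 TPM) overlapped, as did those of Sdc2 (91.7 to 125 TPM), Sdc4 (76.3 to 112 TPM) and Gpc5 (57.4 to 113 TPM). Basement membrane genes were low in comparison. The 13 together held 3.22% of the members' TPM, and Lamb2 alone averaged 84.9 TPM of a class sum of 181 to 191 TPM in antagomir libraries and 179 to 211 TPM in vehicle libraries. By class, matricellular genes held 45.7%, lecticans and partners 34.9%, inhibitors 8.50% and glypicans and syndecans 7.66%. All 37 genes summed to 5629 ± 623 TPM in antagomir libraries and 6223 ± 282 TPM in vehicle libraries (SD, n = 3 each).

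**Figure D1:**
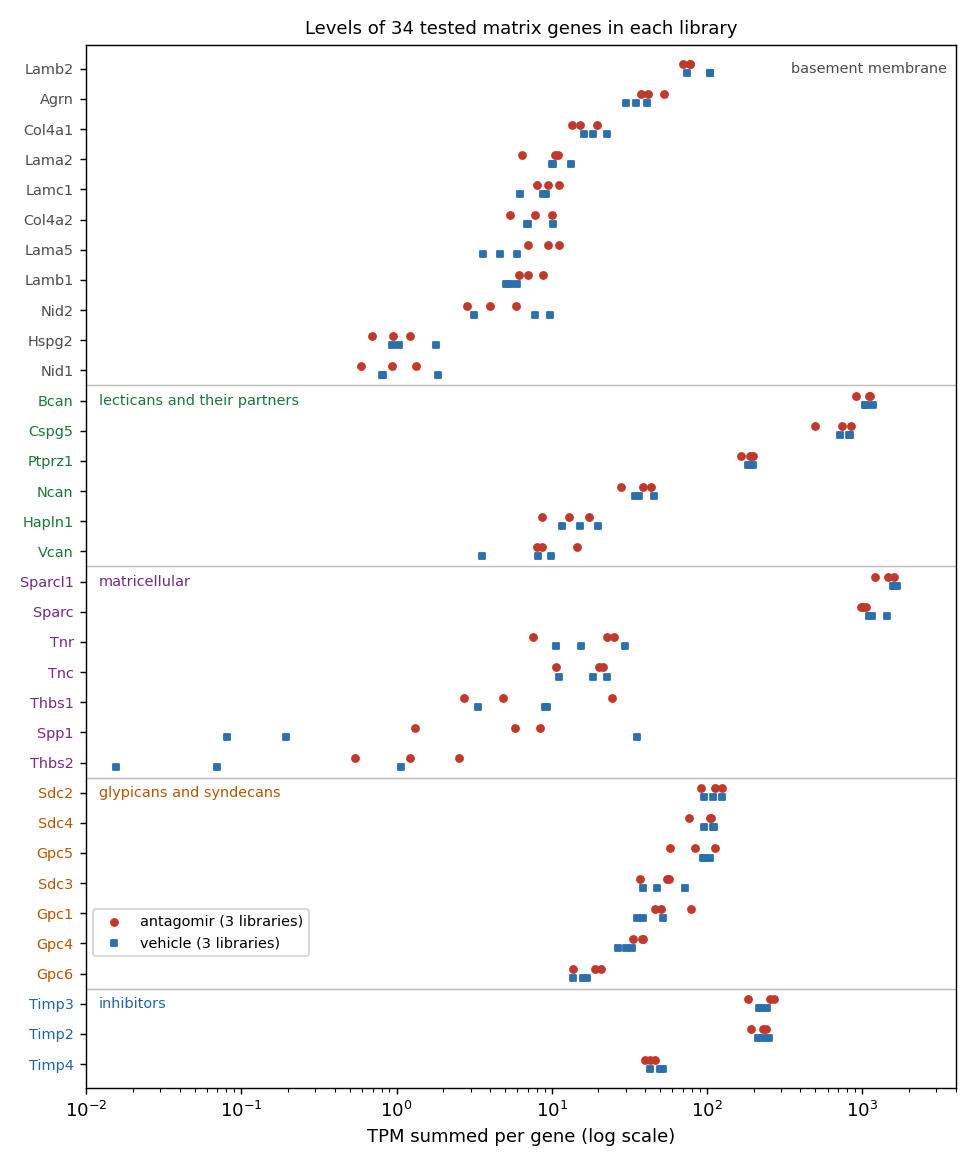
TPM summed per gene (log scale) for the 34 tested matrix genes, by class; circles are the 3 antagomir libraries and squares the 3 vehicle libraries. Sparcl1, Sparc, Bcan and Cspg5 lie at the right end, and most genes' libraries lie close together, except Spp1, Thbs1 and Thbs2.

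For the comparison of antagomir with vehicle, 34 of the 37 genes had enough counts to be tested. The 3 that did not were Lama1, Lama4 and Acan. No difference between antagomir and vehicle libraries in the matrix genes was resolved against the spread between libraries. None of the 34 passed an adjusted p of 0.05 in the quasi-likelihood test of edgeR (Benjamini-Hochberg adjustment over all genes), and 0 of all 15012 tested genes did (0.0%), with a smallest adjusted p of 0.949. At an unadjusted p under 0.05, 1 of the 34 was higher (Lamb1) and 0 were lower, against 616 of all tested genes (4.1%), of which 2.18% were higher and 1.93% lower. By sign, 11 members were higher and 23 lower in antagomir libraries, with a median log2 fold change of -0.11, beside 7372 higher and 7640 lower and a median of -0.0062 over all genes tested. The median standard error of a member was 0.22, so a difference of the size of the median could not be resolved in a typical single member. That error belongs to single genes and not to the median over members, which was not tested. The members' median log2 CPM, centred per gene, had a pooled SD of 0.14 between libraries of a group. Of the 34, 30 (88.2%) had a log2 fold change within 0.5 of 0, beside 80.8% of all tested genes.

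The groups did not overlap in CPM for 5 of the 34 members, against 10.5% of all tested genes. Lamb1 was higher in every antagomir library than in any vehicle library (5.08% of all genes were), and Lamb2, Sparc, Sparcl1 and Timp4 were lower (5.44% of all genes were). In TPM the groups overlapped for Lamb2, Sparcl1 and Timp4, but not for Lamb1 and Sparc. Beside the 4 lower members, the 12 stem cell and astrocyte markers had a median log2 fold change of -0.27, with 11 of 12 lower and 5 lower without overlap, and summed to 9381, 6834 and 9088 CPM in antagomir libraries, against 10267, 9191 and 9545 CPM in vehicle libraries. Ependymal markers were lower for 10 of 10 (median -0.21), while oligodendrocyte markers were higher for 10 of 10 (0.29), precursor markers for 9 of 10 (0.75) and neuroblast markers for 9 of 9 (1.08), none with an adjusted p under 0.05 in edgeR. The part of these markers in the members' values was not tested.

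**Figure D2:**
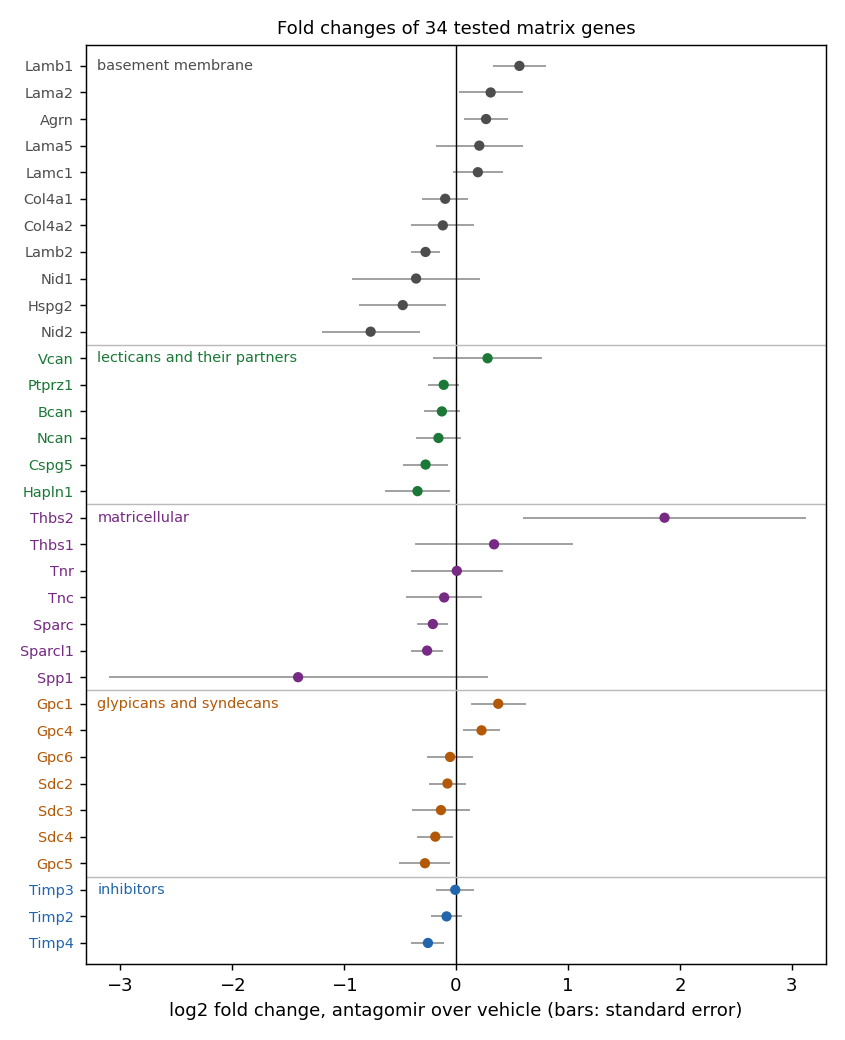
Log2 fold change, antagomir over vehicle, of the 34 tested matrix genes by class, with bars of 1 standard error from edgeR. Most points lie within 0.5 of 0, and the widest bars belong to Spp1 and Thbs2.

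Basement membrane genes were tested for 11 of 13 members, with 5 higher, 6 lower and a median log2 fold change of -0.095. In laminin, a trimer of an α, a β and a γ chain, the 2 β chain genes measured differed in direction. Lamb1, the β1 chain, had 22.3, 19.9 and 28.7 CPM in antagomir libraries, against 18.5, 15.3 and 14.1 CPM in vehicle libraries. All 3 antagomir libraries lay above all 3 vehicle libraries, though antagomir 2 and vehicle 1 were close. The log2 fold change of Lamb1 was 0.57 ± 0.24 (SE), with an unadjusted p of 0.0447 and an adjusted p of 0.949 in edgeR, so it did not pass the threshold.

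Lamb2, the β2 chain and the most abundant laminin gene here, had 218, 227 and 213 CPM in antagomir libraries, against 234, 287 and 272 CPM in vehicle libraries. Every antagomir library was below every vehicle library, with vehicle 1 the nearest. In TPM, where Lamb2 had 70.2, 78.4 and 78.0 in antagomir libraries and 74.6, 104.3 and 103.99 in vehicle libraries, the groups overlapped. Its log2 fold change was -0.27 ± 0.13 (SE; unadjusted p 0.0763, adjusted p 0.949, edgeR). Both genes kept their sign when any 1 library was left out, over 0.42 to 0.70 for Lamb1 and -0.34 to -0.21 for Lamb2. The unadjusted p of Lamb1 in edgeR was then 0.0615, 0.0381 and 0.181 without antagomir 1, 2 and 3. Without vehicle 1, 2 and 3 it was 0.0342, 0.103 and 0.110. With TPM in limma-trend the unadjusted p of Lamb1 was 0.244. Within a library, the ratio of Lamb2 to Lamb1 in TPM of protein-coding transcripts was 10.4, 12.8 and 8.85 in antagomir libraries, against 13.8, 23.1 and 24.5 in vehicle libraries. This ratio was chosen after the values of both genes had been seen, and it is a description that repeats their difference.

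The other laminin chains overlapped between groups. Lama2, the α2 chain of muscle and brain laminin, had 36.0, 22.9 and 40.1 CPM in antagomir libraries, against 20.0, 34.6 and 25.3 CPM in vehicle libraries, with a log2 fold change of 0.31 ± 0.29. Lama5, the α5 chain of mature vessel laminin, had 24.8, 26.3 and 33.9 CPM in antagomir libraries, against 11.3, 36.7 and 25.6 CPM in vehicle libraries, and vehicle 1 and vehicle 2 were its lowest and highest libraries. Summed TPM of Lama5 gave another picture, at 7.03, 9.52 and 11.1 TPM in antagomir libraries and 4.66, 5.99 and 3.59 TPM in vehicle libraries without overlap. On the log2(TPM + 0.1) scale its difference was 0.95 ± 0.35 in limma-trend (unadjusted p 0.0260, adjusted p 0.887), against 0.21 ± 0.39 from the counts. Only 53.7% of the gene's TPM came from protein-coding transcripts, and in these alone the groups overlapped, at 3.55, 3.75 and 4.83 TPM in antagomir libraries and 1.48, 5.34 and 3.59 TPM in vehicle libraries. For Lama2 the protein-coding share was 46.2%.

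Lamc1, the γ1 chain shared by most laminins and a gene with a miR-204-5p seed match, had 32.8, 38.6 and 49.3 CPM in antagomir libraries, against 34.4, 41.4 and 29.6 CPM in vehicle libraries. Antagomir 3 was its highest and vehicle 3 its lowest library, and the log2 fold change was 0.20 ± 0.22, with 0.033 without antagomir 3 and 0.33 without vehicle 2. Lama1 and Lama4 were at or near the limit of detection, and a value of 3 counts corresponded to 0.152 to 0.201 CPM. Lama1 had 2 counts over the antagomir libraries and 29 over the vehicle libraries, all 29 in vehicle 2. Lama4, an α chain of vessel basement membrane, had 43 counts over antagomir libraries and 47 over vehicle libraries, mostly in replicate 3 of each group. These floors, like any interval from counts, cover counting error only.

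Type IV collagen is a trimer, usually of 2 α1 chains and 1 α2 chain. Col4a1 (α1) had 45.3, 47.7 and 66.4 CPM in antagomir libraries, against 48.7, 57.2 and 64.4 CPM in vehicle libraries, with a log2 fold change of -0.095 ± 0.20. Col4a2 (α2) had 20.2, 38.1 and 29.1 CPM in antagomir libraries, against 27.5, 26.9 and 40.2 CPM in vehicle libraries, with a log2 fold change of -0.12 ± 0.28. The groups overlapped for both. The 2 genes are annotated head to head on chromosome 8 (GRCm38, Col4a1 at chr8:11198423-11312826 on the minus strand and Col4a2 at chr8:11312805-11449287 on the plus strand) and overlap by 22 bases. In TPM of protein-coding transcripts Col4a1 exceeded Col4a2 in every library, by 1.72, 1.21 and 2.44-fold in antagomir libraries and 2.16, 2.62 and 1.92-fold in vehicle libraries.

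The linkers were low and variable. Nid2 (nidogen-2, which bridges laminin and collagen IV) had 16.4, 8.02 and 11.2 CPM in antagomir libraries, against 23.0, 27.9 and 9.44 CPM in vehicle libraries, and its log2 fold change was -0.76 ± 0.44. Vehicle 3 lay among the antagomir libraries. Without it the log2 fold change was -1.09 (unadjusted p 0.0173, adjusted p 1.00), and without vehicle 2 it was -0.45 (unadjusted p 0.382). Nid1 (nidogen-1) ranged over 2.10 to 4.62 CPM in antagomir libraries and 2.93 to 6.85 CPM in vehicle libraries. Hspg2 (perlecan, the large heparan sulfate proteoglycan of vessels) ranged over 5.77 to 10.2 CPM in antagomir libraries and 8.26 to 16.0 CPM in vehicle libraries. Agrn (agrin, a heparan sulfate proteoglycan made by glia as well as at the neuromuscular junction) was far above perlecan in TPM (39.7 against 1.10 TPM over the 6 libraries) and had 201, 157 and 139 CPM in antagomir libraries, against 170.3, 122 and 119.98 CPM in vehicle libraries. The groups overlapped, replicate 1 was highest in each, and the log2 fold change was 0.27 ± 0.20, with 0.11 without antagomir 1 and 0.46 without vehicle 1. In TPM of protein-coding transcripts agrin exceeded perlecan by 23.0 to 52.0-fold in antagomir libraries and 12.3 to 35.2-fold in vehicle libraries. The 3 agrin transcripts that each held at least 10% of the gene's TPM were alike between the groups except in antagomir 1, where Agrn-202 (1927 codons) held 42.7%, against 12.1 and 13.2% in the other antagomir libraries and 10.7 to 18.0% in vehicle libraries. The part of the endothelial and mural markers given above in the values of these genes was not tested.

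Lecticans and their partners were tested for 6 of 7 members, with 1 higher, 5 lower and a median log2 fold change of -0.14. Bcan had 1777, 1315 and 1747 CPM in antagomir libraries, against 1782, 1594 and 1900.2 CPM in vehicle libraries. Apart from antagomir 2, all libraries lay between 1594 and 1900.2 CPM. Its log2 fold change was -0.13 ± 0.16, and 0.0087 when antagomir 2 was left out. Cspg5 had 936, 562 and 834 CPM in antagomir libraries, against 987, 833 and 993 CPM in vehicle libraries, with antagomir 2 again the lowest. Cspg5 had a log2 fold change of -0.27 ± 0.20, which was -0.077 without antagomir 2 and -0.43 without antagomir 1.

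Ncan (neurocan, a lectican of the developing brain) had 181, 117 and 161 CPM in antagomir libraries, against 201, 147 and 164 CPM in vehicle libraries, and a log2 fold change of -0.16 ± 0.20. Ptprz1, a receptor phosphatase that carries chondroitin sulfate and is typical of glia and neural stem cells, had 689, 581 and 699.7 CPM in antagomir libraries, against 783, 651 and 690.2 CPM in vehicle libraries, and a log2 fold change of -0.11 ± 0.14. The groups overlapped for both, and antagomir 2 was the lowest library of each. Bcan exceeded Ncan by 20.4 to 23.4-fold in antagomir libraries and 18.4 to 24.5-fold in vehicle libraries in TPM of protein-coding transcripts, so the balance of these lecticans differed by less than the spread between replicates.

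Hapln1, the member with the most miR-204-5p seed matches, had 50.2, 25.3 and 37.4 CPM in antagomir libraries, against 61.6, 45.2 and 36.4 CPM in vehicle libraries. Antagomir 2 was the lowest and vehicle 1 the highest library, and the groups overlapped. The fitted log2 fold change was -0.34 ± 0.29 (unadjusted p 0.277), not above 0, and it was below 0 in all alternatives (-0.60 to -0.10). Across the 3 tested members with an 8mer or 7mer-m8, 1 was higher and the median was -0.13, beside 10 higher and a median of -0.10 among the 31 members without one. Over all tested genes searched the medians were 0.028 with a match and -0.0065 without.

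The 4 link protein genes each lie beside a lectican gene in the annotation: Hapln1 and Vcan on chromosome 13 are 43659 bases apart, and Hapln2 lies beside Bcan, Hapln3 beside Acan and Hapln4 beside Ncan. Hapln2 to Hapln4 are outside the list and were looked up after the members' values had been seen. Hapln2, known from oligodendrocytes at nodes of Ranvier, was the highest of the 4 at 165, 334 and 292 TPM in antagomir libraries, against 123, 258 and 166 TPM in vehicle libraries. Hapln1 had 17.3, 8.64 and 12.9 TPM in antagomir libraries and 20.0, 15.2 and 11.7 TPM in vehicle libraries, Hapln3 ranged over 3.92 to 9.44 TPM and Hapln4 over 0.118 to 0.786 TPM in all 6 libraries. Hapln2 was thus the highest link gene beside the highest lectican gene, Bcan, while Hapln4 was the lowest beside Ncan, the second of the 4 lecticans at 37.7 TPM. Acan (aggrecan, the lectican of perineuronal nets) had 26 counts over the antagomir libraries, 22 of them in antagomir 2, and 0 counts in each vehicle library.

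Vcan (versican, a lectican of progenitors and oligodendrocyte precursors) had 57.3, 20.8 and 28.6 CPM in antagomir libraries, against 45.5, 13.9 and 28.3 CPM in vehicle libraries. Its highest library was replicate 1 in each group, the groups overlapped and the log2 fold change was 0.28 ± 0.49. Its transcripts differ in 2 large exons that carry the chondroitin sulfate attachment regions. Vcan-202 (1615 codons), which lacks a coding stretch of 5217 bases present in the longest form and has the layout of the V2 form of mature brain, made up 21.8, 27.0 and 17.8% of the gene's TPM in antagomir libraries, against 37.04, 44.0 and 33.7% in vehicle libraries. The groups did not overlap in this share, which averaged 22.2 ± 4.65% in antagomir libraries and 38.3 ± 5.24% in vehicle libraries (SD, n = 3 each). The share was singled out after the values had been seen and has no test. The TPM of Vcan-202 itself overlapped between groups, at 3.16, 2.17 and 1.54 in antagomir libraries and 3.64, 1.56 and 2.75 in vehicle libraries. Of the 31 protein-coding transcripts named by the same rule in 12 members, 4 (12.9%) had shares that did not overlap between the groups, beside 9.61% of 13152 transcripts chosen the same way over all tested genes, so such a count is near the background. The other 3 were Sparc-202, at 23.3 to 26.0% in antagomir libraries and 17.7 to 20.6% in vehicle libraries, Gpc6-201, at 29.4 to 37.02% in antagomir libraries and 47.6 to 49.5% in vehicle libraries, and Gpc5-203, at 55.1 to 56.5% in antagomir libraries and 52.8 to 54.6% in vehicle libraries. The TPM of Sparc-202, of Gpc6-201 and of Gpc5-203 overlapped between groups as well. Sparc-202 (301 codons) differs from Sparc-201 (302 codons) by a single codon, and Gpc6-201 (555 codons) lacks 30 coding bases of Gpc6-204 (565 codons).

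The longest form, Vcan-203 (3354 codons), held 7.79 to 28.7% of the gene's TPM in antagomir libraries and 12.6 to 27.8% in vehicle libraries, and Vcan-206 (2394 codons), which lacks 2880 coding bases, held 10.5 to 21.3% in antagomir libraries and 0 to 29.9% in vehicle libraries. Shares of these forms swung between replicates, and in both groups part of the total went to short transcripts that differed from library to library. Vcan-204 (98 codons) held 30.8% in antagomir 2 and 0 in all other libraries. Vcan-205 (368 codons) held 26.0% in antagomir 1 and 15.3% in vehicle 2, and Vcan-201 (655 codons) 33.1% in antagomir 3 and 17.0% in vehicle 3. The files gave versican 311 to 943 estimated counts in antagomir libraries and 227 to 810 in vehicle libraries to divide among its 9 transcripts.

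Ptprz1 was abundant enough for steadier shares. Ptprz1-204 (1463 codons), which lacks 2547 coding bases of the full-length receptor and has the layout of the short receptor form, held 43.3, 39.8 and 47.7% in antagomir libraries, against 35.8, 38.0 and 40.2% in vehicle libraries. Ptprz1-201 (2312 codons), the full-length receptor, held 29.2, 26.1 and 27.6% in antagomir libraries, against 30.1, 27.8 and 23.7% in vehicle libraries. Ptprz1-206 (1612 codons), whose coding part ends early as in the secreted form called phosphacan, held 25.8, 26.4 and 21.1% in antagomir libraries, against 31.5, 24.8 and 27.4% in vehicle libraries. The groups overlapped for all 3 forms, and the short receptor was the largest share in every library.

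**Figure D3:**
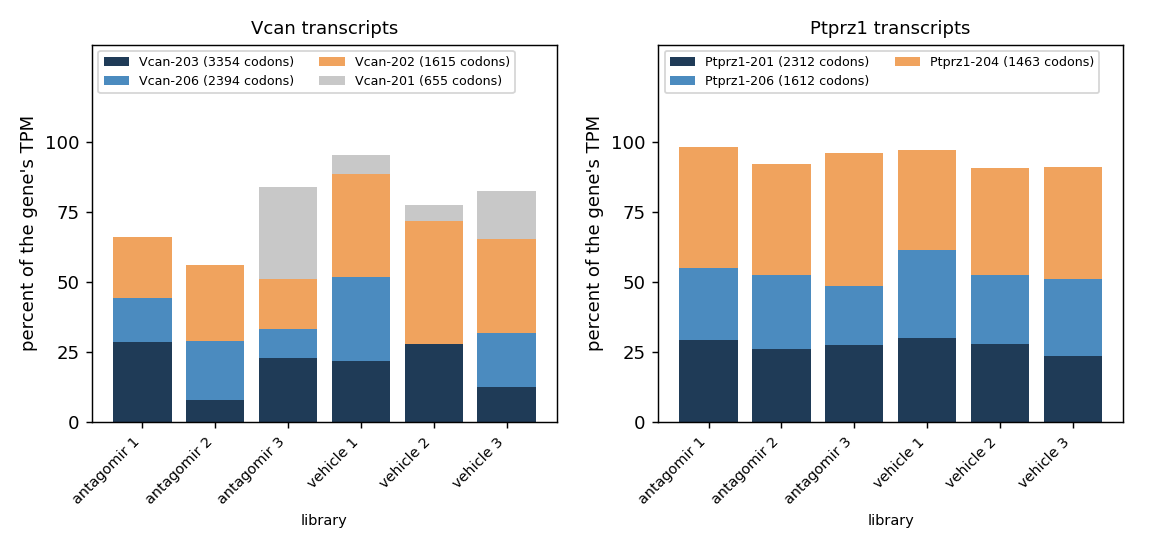
Share of each gene's TPM (percent) held by 4 Vcan and 3 Ptprz1 transcripts in each library, as stacked bars, antagomir libraries left of vehicle libraries; the rest of each gene's TPM lay in other transcripts. The Vcan-202 share is 17.8 to 27.0% in antagomir libraries and 33.7 to 44.0% in vehicle libraries, while the Ptprz1 shares overlap. The TPM of Vcan-202 itself, not shown, overlaps between groups.

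Matricellular genes were all tested (7 of 7), with 3 higher, 4 lower and a median log2 fold change of -0.10. Sparcl1 had 2445, 1845 and 2238 CPM in antagomir libraries, against 2641, 2452 and 2705 CPM in vehicle libraries. All vehicle libraries were above all antagomir libraries in CPM, though antagomir 1 and vehicle 2 differed little. In TPM the groups overlapped for Sparcl1, with antagomir 1 at 1609.5 TPM and vehicle 2 at 1576.1 TPM. Its log2 fold change was -0.26 ± 0.14 (unadjusted p 0.111, adjusted p 0.949, edgeR), and -0.14 without antagomir 2. Sparc had 905, 867 and 849 CPM in antagomir libraries, against 1162, 926 and 933 CPM in vehicle libraries. Sparc did not overlap in CPM either, vehicle 1 was the highest library, and its log2 fold change was -0.21 ± 0.14 (unadjusted p 0.176, adjusted p 0.949, edgeR) and -0.082 without vehicle 1. Counting protein-coding transcripts alone, Sparc had 632, 612 and 621 TPM in antagomir libraries, against 826, 673 and 687 TPM in vehicle libraries, again without overlap.

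The tenascins are large glycoproteins of the niche and of perineuronal matrix. Tnc (tenascin-C, of neural stem cells and astrocytes) had 82.2, 35.9 and 79.2 CPM in antagomir libraries, against 48.3, 86.9 and 77.1 CPM in vehicle libraries. Tnr (tenascin-R, made largely by oligodendrocytes and neurons) had 17.3, 50.1 and 47.4 CPM in antagomir libraries, against 27.5, 33.5 and 53.0 CPM in vehicle libraries. Each group held both low and high libraries of both genes, and the log2 fold changes were -0.10 ± 0.34 for Tnc and 0.0086 ± 0.41 for Tnr. Most Tnc TPM came from Tnc-204 and Tnc-201 (2019 codons each), which lack a coding stretch of 273 bases that Tnc-203 (2110 codons) contains, and Tnc-203 held 7.26 to 34.6% in antagomir libraries and 15.9 to 46.1% in vehicle libraries.

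Spp1 (osteopontin, a secreted integrin ligand typical of activated microglia) had a fold change whose sign rested on 1 library. Its levels were 0.729, 4.28 and 5.55 CPM in antagomir libraries, against 27.9, 0.0611 and 0.152 CPM in vehicle libraries. Vehicle 1 was far above all others and the other vehicle libraries were at or under the level of 3 counts. The log2 fold change was -1.41 ± 1.69 with all libraries and 4.92 ± 1.23 without vehicle 1 (unadjusted p 0.00397, adjusted p 0.493, edgeR), so its direction turned on that library. Vehicle 1 was also the library with the high microglia and macrophage marker sum (2035 CPM), whose part in the Spp1 value was not tested.

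Thbs1 and Thbs2 encode thrombospondins, astrocyte proteins that promote synapse formation. Thbs1 had 9.18, 16.5 and 65.7 CPM in antagomir libraries, against 32.2, 10.3 and 29.6 CPM in vehicle libraries, and antagomir 3 set its log2 fold change of 0.34 ± 0.71, which was -0.90 without that library. Thbs2 had 8.57, 1.87 and 4.19 CPM in antagomir libraries, against 0.0562, 3.73 and 0.254 CPM in vehicle libraries. Vehicle 2 lay among the antagomir libraries. The Thbs2 log2 fold change was 1.86 ± 1.26 (unadjusted p 0.178, adjusted p 0.949), and it was 4.90 ± 1.12 without vehicle 2 (unadjusted p 0.00335, adjusted p 0.981, edgeR) and 1.18 ± 1.42 without antagomir 1 (unadjusted p 0.434). With limma-voom it was 3.304 (unadjusted p 0.0359, adjusted p 0.881). The coefficient of variation over the 6 libraries was 167% for Spp1, 102% for Thbs2 and 77.6% for Thbs1, against 12.1% for Sparc and 13.1% for Sparcl1.

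**Figure D4:**
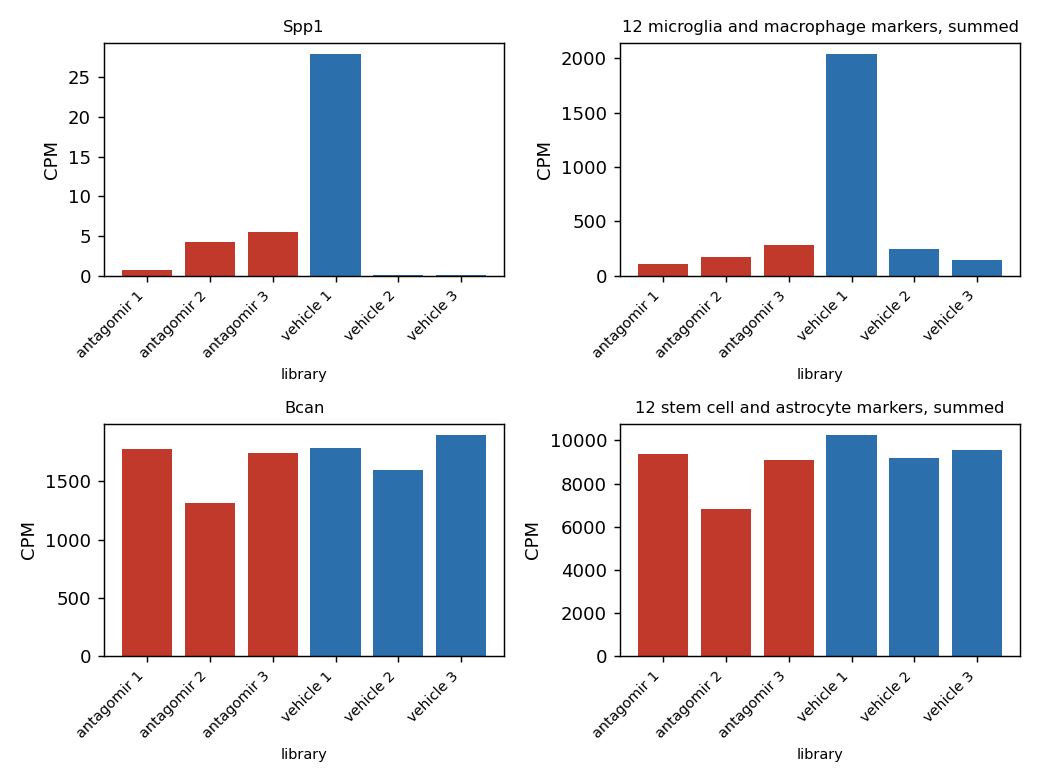
CPM in each library of Spp1, of 12 summed microglia and macrophage markers, of Bcan and of 12 summed stem cell and astrocyte markers; bars from 0, antagomir libraries left of vehicle libraries. Vehicle 1 is the highest in Spp1 (27.9 CPM) and in microglia markers (2035 CPM), and antagomir 2 is the lowest in Bcan (1315 CPM) and in stem cell markers (6834 CPM).

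Glypicans and syndecans were all tested (7 of 7), with 2 higher, 5 lower and a median log2 fold change of -0.075, and the groups overlapped in CPM for all 7. Gpc1 (glypican-1) had 179.6, 102 and 118 CPM in antagomir libraries, against 126, 82.2 and 99.1 CPM in vehicle libraries. Replicate 1 was the highest in each group. Its log2 fold change was 0.38 ± 0.25 (unadjusted p 0.164), and 0.10 without antagomir 1. Gpc4 (glypican-4, secreted by astrocytes and active in synapse formation) had 49.1, 56.8 and 57.1 CPM in antagomir libraries, against 47.1, 40.4 and 51.5 CPM in vehicle libraries. Only vehicle 3 lay above an antagomir library, and the log2 fold change was 0.23 ± 0.17. In TPM the groups did not overlap for Gpc4, at 33.3, 38.2 and 38.7 in antagomir libraries and 30.1, 26.7 and 32.7 in vehicle libraries. On the log2(TPM + 0.1) scale its difference was 0.30 ± 0.18 in limma-trend (unadjusted p 0.131, adjusted p 0.887).

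Gpc5 (glypican-5, of astrocytes) had 145.5, 75.02 and 107 CPM in antagomir libraries, against 131, 136 and 129 CPM in vehicle libraries. The vehicle libraries lay within 129 and 136 CPM while the antagomir libraries spread on both sides of them, and the log2 fold change was -0.28 ± 0.23. It was -0.54 without antagomir 1 (unadjusted p 0.0210, adjusted p 1.00) and -0.058 without antagomir 2. Gpc6 (glypican-6, like Gpc4 an astrocyte signal for synapses) ranged over 33.5 to 51.8 CPM in antagomir libraries and 40.4 to 49.6 CPM in vehicle libraries.

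Of the syndecans, which are transmembrane co-receptors for growth factors, Sdc2 had 210.3, 174 and 235 CPM in antagomir libraries, against 191, 211 and 249.9 CPM in vehicle libraries. Sdc4, a syndecan of focal adhesions, had 139, 103 and 136 CPM in antagomir libraries, against 149.6, 131 and 148 CPM in vehicle libraries, and its log2 fold change was -0.18 ± 0.16. Sdc3, the third gene with an 8mer or 7mer-m8, had 153, 108 and 155 CPM in antagomir libraries, against 214, 127 and 115 CPM in vehicle libraries. Antagomir 2 was the lowest library of all 3 syndecans. The log2 fold change of Sdc3 was -0.13 ± 0.26 and 0.21 without vehicle 1.

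The TIMPs inhibit matrix metalloproteinases, and Timp3, which binds the matrix, also inhibits ADAM-family proteases. Timp3 had 722, 490.4 and 683 CPM in antagomir libraries, against 629, 671 and 603 CPM in vehicle libraries, with a log2 fold change of -0.0055 ± 0.17. Timp2 had 393, 459 and 476 CPM in antagomir libraries, against 440.1, 513 and 453 CPM in vehicle libraries, with a log2 fold change of -0.083 ± 0.14. The groups overlapped for both genes. Timp4, an inhibitor enriched in brain and heart, had 79.0, 69.8 and 80.5 CPM in antagomir libraries, against 101, 90.7 and 81.2 CPM in vehicle libraries. The groups did not overlap in CPM, but antagomir 3 and vehicle 3 were nearly equal. In TPM the groups overlapped, with antagomir 1 at 46.3 and antagomir 3 at 43.3 TPM, above vehicle 3 at 42.7 TPM. The log2 fold change of Timp4 was -0.25 ± 0.15 (unadjusted p 0.127, adjusted p 0.949, edgeR).

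Across the classes, antagomir 2 was the library that members followed most often. It was the lowest library for 15 of the 34 tested members (44.1%), beside 14.6% of all tested genes, and the highest for 0, beside 14.6% of all tested genes. The 15 included 5 of 6 tested lecticans and partners, 5 of 7 glypicans and syndecans and 2 of 3 inhibitors. The same library had the lowest stem cell and astrocyte marker sum. Without it the median log2 fold change was 0.0087 over all members, -0.0070 for lecticans and partners and 0.041 for glypicans and syndecans. The members' median was -0.040 without vehicle 3 and -0.17 to -0.10 without any other single library, so its distance from 0 rested mainly on antagomir 2.

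**Figure D5:**
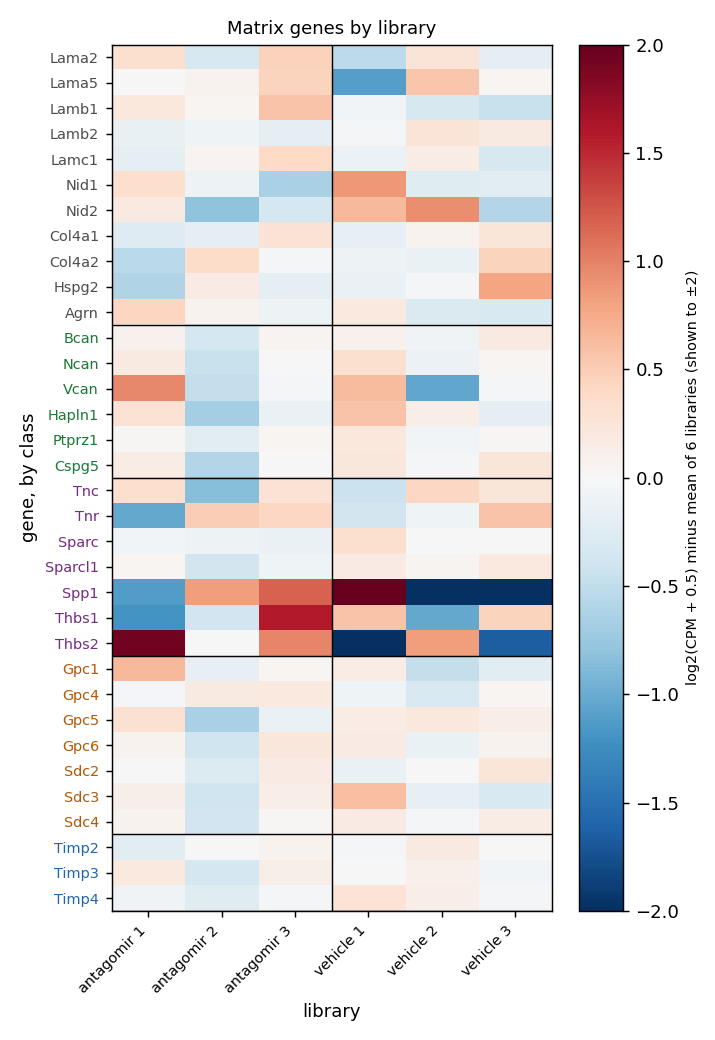
Log2(CPM + 0.5) of each tested matrix gene minus its mean over the 6 libraries, by class, with antagomir libraries left of vehicle libraries and colours shown to 2 either side of 0. The antagomir 2 column is low for 5 of 6 lecticans and partners and 5 of 7 glypicans and syndecans, and Spp1 and Thbs2 hold the deepest colours.

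Genes that work with the 37 were described from 3 further lists, and none of their members passed the adjusted threshold. Of 49 matrix genes of the same families, 35 were tested, with 15 higher, 20 lower and a median log2 fold change of -0.11; at an unadjusted p under 0.05, 1 was higher and 2 lower. Ecm1 (extracellular matrix protein 1) had 2.37, 3.88 and 2.32 CPM in antagomir libraries, against 17.7, 11.98 and 5.94 CPM in vehicle libraries, and Spock3 (testican-3, a proteoglycan of brain) had 61.8, 80.6 and 73.7 CPM in antagomir libraries, against 41.7, 53.2 and 33.5 CPM in vehicle libraries. The groups overlapped for neither. Their log2 fold changes were -2.05 ± 0.50 (unadjusted p 0.00317, adjusted p 0.949, edgeR) for Ecm1 and 0.75 ± 0.21 (unadjusted p 0.00692, adjusted p 0.949, edgeR) for Spock3. Tnxb (tenascin-X) had a log2 fold change of -1.35 ± 0.56. Ecm1, Spock3 and Tnxb were named for the smallest p in the list, which favours groups without overlap. Of the 35 tested, 1 was higher and 2 were lower without overlap, beside 10.5% of all tested genes for both directions. An unadjusted p under 0.05 in edgeR was found for 4.1% of all tested genes.

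Among 22 matrix proteases and their regulators, 20 were tested, 7 were higher and 13 lower, the median was -0.091, and 0 had an unadjusted p under 0.05. The 3 with the smallest p were Mmp24 (1.16 ± 0.57), Htra1 (-0.28 ± 0.15) and Adamts4, a protease that cuts lecticans (0.51 ± 0.27). Adamts4 had 183, 235 and 243 CPM in antagomir libraries, against 101, 218 and 146 CPM in vehicle libraries, with overlap.

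Of 40 genes that build or modify glycosaminoglycan chains, 37 were tested, with 17 higher, 20 lower and a median of -0.051; 1 was higher and 2 lower at an unadjusted p under 0.05. Ndst1, which starts the sulfation of heparan sulfate, had 138, 143 and 121 CPM in antagomir libraries, against 89.8, 105 and 102 CPM in vehicle libraries (log2 fold change 0.44 ± 0.14, unadjusted p 0.0140). Xylt1, which attaches the first sugar of the chain to the core protein, had 28.9, 25.1 and 24.8 CPM in antagomir libraries, against 36.4, 35.4 and 34.4 CPM in vehicle libraries (-0.43 ± 0.17, unadjusted p 0.0372). Csgalnact1, which starts chondroitin sulfate chains, had 60.9, 50.1 and 50.9 CPM in antagomir libraries, against 65.7, 70.1 and 79.1 CPM in vehicle libraries (-0.41 ± 0.16, unadjusted p 0.0315). The groups did not overlap for any of the 3, and each had an adjusted p of 0.949 in edgeR. The 3 were named for the smallest p in the list, which favours groups without overlap. Of the 37 tested, 3 were higher and 3 lower without overlap, beside 10.5% of all tested genes for both directions. An unadjusted p under 0.05 in edgeR was found for 4.1% of all tested genes.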

How the data were processed

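Total RNA was taken up with a PicoPure kit, amplified as cDNA by SMART-Seq v4 (no strand information) and read as paired ends of 100 bases, per the labels' protocols. kallisto, sleuth and the build mm10 appear in the submitters' processing notes, and their versions are not given in the sources used here. Both the deposited estimated counts (expected counts) and the deposited TPM are the authors' values per transcript, per the file headers. Reads are divided among similar transcripts by a model, so near-identical copies and overlapping or antisense genes are uncertain.

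Of 99567 transcripts, 98.7% matched GENCODE M21 (GRCm38) by identifier without version. The other 1273, with 0.524 to 0.586% of counts, were left out. Estimated counts and TPM were summed per gene and the counts rounded to whole numbers. Differences were tested in edgeR 4.0.16 under R 4.3.3 by a robust quasi-likelihood fit with TMM factors and no covariate, over all 6 libraries and the 15012 genes that filterByExpr kept (minimum count 10). Benjamini-Hochberg adjusted p under 0.05 counted as a call. The common coefficient of variation between libraries in edgeR, beyond counting error, was 36.2%, and it may be technical. The script was tested on simulated data. CPM use TMM-scaled library sizes. A chi-square per gene between libraries was 23.5 to 98.1, so no pair looked like the same library.

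Alternatives were other scaling factors (RLE, upper quartile, library totals), no filter or a mean count of at least 50, DESeq2 1.42.0, limma-voom and limma-trend (3.58.1) on log2(TPM + 0.1), a replicate block, and leaving out each library. Groups come from the titles, since 1 label field gives the antagomir as the treatment of all 6 samples. The members and lists were chosen with earlier results of these data known. All members are named. The 3 genes with the smallest p are named in each other list, at most 3 defining markers per cell type, and transcripts where at least 2 protein-coding ones each hold 10% of a gene's TPM. The link protein genes, Vcan-201, Vcan-204 and Vcan-205 lie outside the rule, and of the 12 members whose transcripts it covers 7 are described.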

Additional observations from a re-analysis of the deposited data

How the results depend on the processing

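No member passed the adjusted threshold under any of the 15 alternatives (DESeq2 returned no p for Spp1), and DESeq2 was the only one that called any gene, 1 that is not a member (0 with all other alternatives). Of 34 members, 18 kept their sign throughout and 16 did not. The median log2 fold change of basement membrane genes was -0.22 with deposited TPM in limma-trend, and -0.16 to 0.11 when 1 library was left out. Outside leave-one-out, signs turned for Timp3 (0.0021 with DESeq2 and with RLE factors, 0.036 with TPM, 0.0086 without a filter), Tnr (-0.063 with TPM, -0.0088 with library totals, -0.10 with limma-voom, -0.016 with upper-quartile factors, -0.081 with the replicate block), Spp1 (1.74 with TPM, 1.78 with limma-voom, 2.79 with the replicate block), Lama2 (-0.29 with TPM) and Gpc6 (0.18 with TPM). The cause was not tested.

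With 1 library left out, the log2 fold changes that turned sign ranged over -0.28 to 0.016 for Col4a1, -0.35 to 0.10 for Col4a2, -0.13 to 0.62 for Lama5, -0.67 to 0.18 for Nid1, -0.20 to 0.0087 for Bcan, -0.30 to 0.0098 for Ncan, -0.24 to 0.77 for Vcan, -0.30 to 0.20 for Tnc, -0.23 to 0.35 for Tnr, -1.99 to 4.92 for Spp1, -0.90 to 0.77 for Thbs1, -0.17 to 0.11 for Gpc6, -0.17 to 0.050 for Sdc2, -0.29 to 0.21 for Sdc3 and -0.11 to 0.15 for Timp3.

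The groups share replicate numbers, and the labels do not say whether these pair the libraries. Deviations of same-numbered libraries correlated at 0.195, 0.0749 and 0.0275, and not every library correlated best with its own number. These values do not settle whether libraries are paired, so the main fit has no block and the block is an alternative. With the replicate block 0 genes were called (smallest adjusted p 0.210) and 1284 had an unadjusted p under 0.05, against 616 without it, with Gpc1 the only member among them. The standard error with the block was 0.20 for Vcan and 0.12 for Gpc1, against 0.49 and 0.25 in the main fit. For Spp1 it was 3.54 with the block and 1.69 in the main fit. Without vehicle 1, 1133 genes had an unadjusted p under 0.05 and 0 were called, with Lamb1, Lamb2 and Spp1 among them. Upper-quartile factors left no member at that level, and neither did leaving out antagomir 3. Depth limits Lama1, Lama4, Acan, Nid1, Hspg2, Spp1 and Thbs2, which had under 10 CPM in most libraries.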
